A study of Homo sapiens with 7 samples.

Results

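Intronic super-enhancers (SEs) that lie away from the promoter were described in HepG2 cells, an established human liver cancer line, under endoplasmic reticulum stress (ERS) and in the solvent control. Cells had been treated with tunicamycin (TM), which blocks N-linked glycosylation, or with its solvent DMSO. Histone H3 acetylated at lysine 27 (H3K27ac) was profiled by ChIP-seq in 3 libraries per group, called TM 1 to TM 3 and DMSO 1 to DMSO 3 here, and the SEs of each library were listed in a table of their own. The labels give no dose or duration of TM and do not state whether the replicates came from separate cultures, and a p-value below therefore speaks of the spread among these 6 libraries only, which may be technical. A listed SE was a member of the set where its linked gene was protein-coding, its midpoint lay in an intron, and its midpoint was more than 5000 and less than 100000 bp from the transcription start site (TSS) of the linked gene. Of 7472 listed SEs, 2529 (33.8%) were members, linked to 803 genes. Of all 3353 intronic SEs of protein-coding genes, 499 fell within the lower distance limit and 325 beyond the upper one. Just inside the lower limit were SEs at CISD1 in TM 3 (5.01 kb) and PKP2 in TM 2 (5.039 kb), and just outside it SEs at ANXA2 in DMSO 1 (4.982 kb) and RPA3 in DMSO 3 (-4.984 kb). At the upper limit, LIMCH1 in DMSO 3 (99.989 kb) and SEMA3C in DMSO 1 (99.259 kb) were just inside, and PCSK1 in DMSO 1 (100.445 kb) and SEMA3C in TM 2 (100.861 kb) just outside.

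H3K27ac is laid down by the acetyltransferases p300 and CBP at active promoters and enhancers. An SE is a run of such enhancers stitched into a single domain with an unusually high summed signal, and genes near SEs are often transcribed strongly in the cell type at hand. Many enhancers sit in introns, and the long first intron of a gene is a common place for them, because it begins at the promoter and is rich in regulatory sequence. An intronic enhancer can act on the gene that hosts it or on a neighbour. In the unfolded protein response, the sensors IRE1 (encoded by ERN1), PERK and ATF6 detect misfolded protein in the endoplasmic reticulum and lead to the activity of bZIP transcription factors, among them XBP1, ATF4 and, further downstream, ATF3.

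The sequences of the SEs themselves are not shown, since no genome of the deposited coordinates' build was used here. For genes whose intronic SE was listed in 1 treatment only, the promoter is shown instead, as 250 bases before a RefSeq gene start (GRCh38.p14), because most of these SEs spanned the linked TSS. ATF3 and ERN1 are stress response genes whose SEs were listed in TM alone, CREB1 is a bZIP gene with the same pattern, and SPECC1L and ERCC6L2 had SEs listed in DMSO alone. They lie at chr1:212565157-212565406 (ATF3, plus strand, the first of its 2 RefSeq starts), chr17:64130145-64130394 (ERN1, minus strand), chr2:207529712-207529961 (CREB1, plus strand), chr22:24270581-24270830 (SPECC1L, plus strand) and chr9:95875441-95875690 (ERCC6L2, plus strand). Capitals mark a C/EBP-ATF motif (TGATGNAA, in ATF3 only) or a CCAAT box, written ATTGG where it is on the other strand.
ATF3: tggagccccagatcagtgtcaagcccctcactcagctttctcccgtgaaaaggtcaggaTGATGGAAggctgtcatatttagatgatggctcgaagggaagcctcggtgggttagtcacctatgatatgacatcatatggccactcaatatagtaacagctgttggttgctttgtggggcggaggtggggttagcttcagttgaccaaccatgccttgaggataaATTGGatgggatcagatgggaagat
ERN1: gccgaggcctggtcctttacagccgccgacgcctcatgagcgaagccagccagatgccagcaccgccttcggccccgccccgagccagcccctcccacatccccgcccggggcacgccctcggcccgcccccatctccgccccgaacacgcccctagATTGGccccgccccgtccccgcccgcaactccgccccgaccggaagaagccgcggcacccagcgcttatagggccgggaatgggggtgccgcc
CREB1: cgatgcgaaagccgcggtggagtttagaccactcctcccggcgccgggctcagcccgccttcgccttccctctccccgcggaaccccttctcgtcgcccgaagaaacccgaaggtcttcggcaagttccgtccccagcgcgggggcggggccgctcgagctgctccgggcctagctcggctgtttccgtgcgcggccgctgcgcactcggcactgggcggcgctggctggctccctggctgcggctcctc
SPECC1L: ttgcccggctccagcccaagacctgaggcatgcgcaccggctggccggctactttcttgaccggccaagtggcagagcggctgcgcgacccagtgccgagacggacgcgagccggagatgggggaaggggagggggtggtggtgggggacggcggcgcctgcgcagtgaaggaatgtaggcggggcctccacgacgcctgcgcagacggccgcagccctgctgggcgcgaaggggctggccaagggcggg
ERCC6L2: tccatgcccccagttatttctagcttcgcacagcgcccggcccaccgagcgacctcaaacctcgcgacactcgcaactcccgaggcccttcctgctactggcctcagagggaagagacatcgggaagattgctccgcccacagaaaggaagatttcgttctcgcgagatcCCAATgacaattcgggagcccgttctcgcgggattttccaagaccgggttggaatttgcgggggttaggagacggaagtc
The ATF3 window held the C/EBP-ATF motif 191 to 184 bases before the start and a CCAAT box 25 to 21 bases before it. The CCAAT boxes of ERN1 and ERCC6L2 lay 93 to 89 and 80 to 76 bases before their starts. The windows of CREB1 and SPECC1L, and that of the second ATF3 start, held none of the 6 motifs searched on both strands. These were the cAMP response element TGACGTCA, the AP-1 site TGACTCA or TGAGTCA, TGATGNAA, the core TGACGTGG of the unfolded protein response element, the ER stress response element (CCAAT and CCACG with 9 bases between them) and CCAAT alone, which overlaps the preceding motif. Over all 27305 genes of the table, 3.89% held TGATGNAA at some start, 37.0% CCAAT, 5.19% the AP-1 site, 2.03% the cAMP response element, 0.780% the TGACGTGG core and 0.0916% the ER stress response element. Among genes whose TM-only SE spanned the TSS in all calling libraries, 14 of 16 had a window, of which 1 held TGATGNAA, 5 held CCAAT and 0 held any of the other motifs. For the 11 such DMSO-only genes, 10 had a window and 4 held CCAAT, with 0 for the rest. Where the SE was listed in all 6 libraries and spanned the TSS in each, 59 of 72 genes had a window, of which 28 held CCAAT, 7 the AP-1 site, 5 TGATGNAA and 2 the cAMP response element. A RefSeq start need not be the start to which the deposited tables linked an SE, and a match describes letters in the window only.

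The members were checked against the words intronic and away. The intron named in the table belonged to a transcript of the linked gene in 2113 of 2502 SEs (84.5%) whose host could be named, and in the others the SE lay in an intron of a neighbour. An example is the SE linked to PRKAR1A, a regulatory subunit of protein kinase A, whose midpoint lay in introns 7 to 9 of ARSG, the sulfatase gene next to it. The distance refers to the midpoint, and the median member was 52.8 kb long with its midpoint 22.3 kb from the TSS, so 1839 members (72.7%) reached over the linked TSS. The set is therefore away from the promoter by its midpoints and for the most part not by its extent. Midpoints lay upstream of the linked TSS in 460 members (18.2%). Midpoints in an annotated repeat made up 1129 members (44.6%).

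The lists also bear on the cell type. Of 23 hepatocyte and HepG2 identity genes, 3 were linked to any listed SE: CPS1, a urea cycle enzyme, in all 6 libraries, FOXA1, a pioneer factor of liver development, in 2 DMSO libraries, and TM4SF4 in 3 DMSO libraries. ALB, AFP and HNF4A, defining genes of this line, were linked to no SE of any library. Of 19 genes of other liver cells, 4 were linked (LUM in 3 DMSO libraries, PDGFRB in 1 TM and 3 DMSO libraries, PTPRC in 2 TM libraries and KRT7 in 1 TM library), and 0 in all 6 libraries. The part of these genes in the results below was not tested. The lists hold only SEs above a signal threshold of their library, which was 18282, 26265 and 18884 in TM 1, 2 and 3, against 24793, 16747 and 24383 in DMSO 1, 2 and 3. The number of reads per library is unknown, and unlisted sequence may carry H3K27ac below the threshold. TM 2 had the longest list and the highest threshold.

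Intronic SEs were about as many under TM as under DMSO, but at the median they were shorter, joined fewer peaks and were denser in each TM library than in each DMSO library. There were 371, 513 and 409 members in TM 1 to TM 3, against 373, 439 and 424 in DMSO 1 to DMSO 3. The mean was 431 ± 73.5 in TM, against 412 ± 34.6 in DMSO (SD, n = 3 each; exact permutation test, two-sided, p = 0.9). They made up 33.2 ± 0.759% of a TM list and 34.5 ± 1.85% of a DMSO list (exact permutation p = 0.3). The groups overlapped in both measures, and without TM 2 the difference in number was -22 and without DMSO 1 it was -0.5.

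The median length of a member was 44.4, 48.7 and 40.2 kb in the TM libraries, against 62.3, 54.3 and 69.0 kb in the DMSO libraries. The groups did not overlap, and the means differed by -17412.5 bp (exact permutation p = 0.1, the smallest that 3 against 3 can give; Benjamini-Hochberg adjusted p = 0.175 over 7 measures, as for the 3 measures that follow). The middle of the distribution moved along with the median, since the lower and upper quartiles were 29.2 to 34.1 kb and 53.7 to 69.0 kb over the TM libraries and 40.0 to 52.3 kb and 75.6 to 95.2 kb over the DMSO libraries. The number of H3K27ac peaks stitched into a member had medians of 9, 9 and 7 in TM, against 15, 13 and 17 in DMSO, again without overlap (exact permutation p = 0.1). Members made of only 1 to 3 peaks numbered 27, 37 and 47 in TM and 5, 8 and 3 in DMSO, which is 8.66 ± 2.45% of the TM members and 1.29 ± 0.559% of the DMSO members (exact permutation p = 0.1). The density, that is the deposited signal per bp of the SE, had medians of 0.710, 0.991 and 0.810 in TM and of 0.686, 0.551 and 0.651 in DMSO (exact permutation p = 0.1). These densities are on the scale of the deposited tables, and whether that scale is corrected for library size is not stated. The groups did not overlap in length, peaks or density, and TM 1 and DMSO 1 were close in density. The other SEs of the same lists were shifted in the same way and also without overlap. Their median length was 39.2, 41.5 and 36.5 kb in TM, against 60.8, 49.2 and 62.4 kb in DMSO, their median peaks 8, 8 and 6 in TM, against 14, 12 and 15 in DMSO, and their median density 0.808 to 1.17 per bp in TM, against 0.594 to 0.7185 in DMSO. The shift thus had the same direction in members and other SEs. The gap between members and other SEs differed by 1.01 kb in length between TM and DMSO (exact permutation p = 0.6). In density the gap, members minus other SEs, was -0.135 per bp in TM and -0.0423 in DMSO, without overlap (exact permutation p = 0.1).

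**Figure D1:**
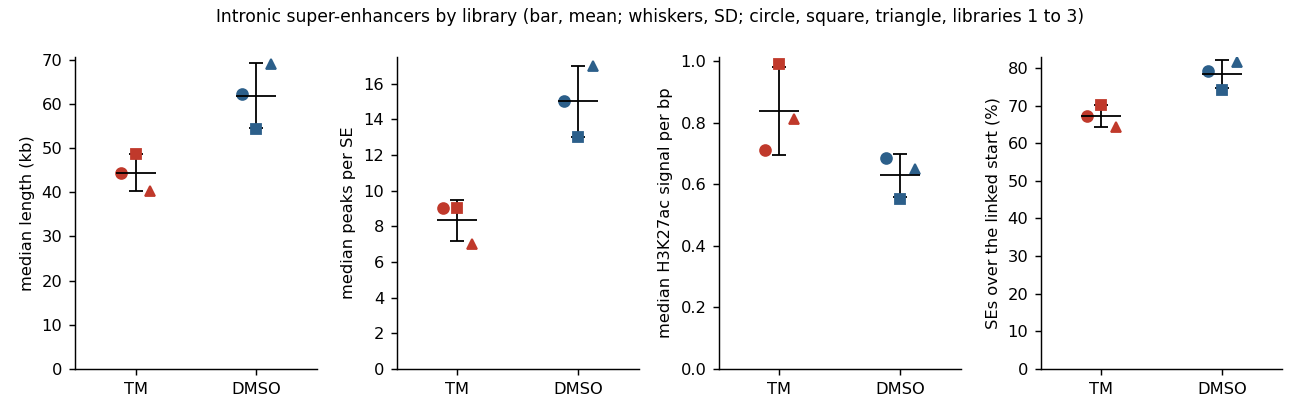
Median length in kb, median number of stitched H3K27ac peaks, median density (deposited signal per bp) and percent of members reaching over the linked TSS, in each of the 3 TM and 3 DMSO libraries. Points are libraries and bars the mean with its SD; the TM points lie below all DMSO points for length (40.2 to 48.7 against 54.3 to 69.0 kb), peaks and percent over the TSS and above them for density.

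A smaller share of the members also reached the promoter in each TM library than in each DMSO library. The percentage that spanned the linked TSS was 67.1, 70.2 and 64.3 in the TM libraries, against 79.1, 74.3 and 81.6 in the DMSO libraries (67.2 ± 2.94% and 78.3 ± 3.73%, exact permutation p = 0.1, no overlap). The other SEs of the lists also did so in a smaller share, 61.1, 57.0 and 56.9% in TM, against 66.9, 61.3 and 66.4% in DMSO, and the gap between members and other SEs did not separate the groups by test (-4.56 points, exact permutation p = 0.3). Members that stopped short of the TSS numbered 122, 153 and 146 in the TM libraries, against 78, 113 and 78 in the DMSO libraries (exact permutation p = 0.1). The count of SEs that did reach it overlapped between the groups, at 291 ± 60.5 in TM, against 322 ± 25.7 in DMSO (exact permutation p = 0.5). The SEs that stopped short ended at a like distance in both groups, a median of 28.0 ± 0.775 kb from the TSS in TM, against 28.6 ± 3.14 kb in DMSO (exact permutation p = 1). They had 36.1 ± 2.35 kb in TM and 51.2 ± 6.57 kb in DMSO as median length, and the SEs over the TSS had 48.0 ± 4.87 kb and 64.8 ± 7.70 kb. Whether an SE reaches the TSS depends on its length, so these lengths are given as a description. For the same reason, the lower share over the TSS in TM is not independent of the shorter length there.

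The longest and the densest members stood at the ends of this range. In TM the longest were an SE of 254 kb at ATXN10 in TM 3 and SEs of 250 and 248 kb at CRIM1, a transmembrane regulator of bone morphogenetic proteins, in TM 3 and TM 1. In DMSO they were an SE of 569 kb with 124 peaks linked to ELL2, an elongation factor gene, in DMSO 1, and SEs of 396 and 391 kb at WNT2, a Wnt ligand gene, in DMSO 3 and DMSO 1. The densest TM members were all in TM 2: CLPTM1L at 9.34 per bp, a single peak of 5.13 kb, GMDS, an enzyme of GDP-fucose synthesis, at 4.84, and EBNA1BP2 at 4.59 from a single peak in the neighbouring gene CFAP57. In DMSO the densest were in DMSO 3: YAP1, the Hippo pathway coactivator, at 4.30, PFKFB2, an enzyme that regulates glycolysis, at 1.74, and GMDS again at 1.68. The highest intron number, 68, belonged to an SE linked to TXNIP in DMSO 2 that lay in NBPF10, a member of a family of near-identical copies whose reads may be shared.

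The second question was whether SEs in the first intron differ from those further into a gene. Intron 1 held 1013 of the 2529 members, 39.4, 39.2 and 40.6% in the TM libraries and 41.8, 39.6 and 40.1% in the DMSO libraries, and the groups overlapped (exact permutation p = 0.5). The next introns held fewer. Intron 2 held 22.8% in TM and 22.8% in DMSO (mean of 3 libraries each, as for the introns that follow), intron 3 held 10.4% and 11.6%, introns 6 to 10 held 9.07% and 8.26%, and introns from 11 on held 6.14% and 5.50%. The last intron of a transcript with several held 6.70% in TM, against 7.22% in DMSO (exact permutation p = 0.4).

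Intron 1 members lay nearer to their TSS than members in later introns, by 6.11 kb in the median of a library (19.7 against 25.8 kb), and 83.8% against 65.4% of them spanned it. This held in 6 of 6 libraries for both measures and is given with no test, since members were chosen by that distance and intron 1 begins at a TSS. The host intron belonged to the linked gene in 95.3% of intron 1 members and 77.2% of later ones, in 6 of 6 libraries. No test is given for this either, since intron 1 begins at a TSS of its host gene. The summed signal was lower in intron 1 in 6 of 6 libraries, at a mean of library medians of 34944 against 36086. Its p was 0.03125 (exact sign-flip permutation test over libraries, two-sided), the smallest that 6 libraries can give. This p was not adjusted together with the tests of density, length and peaks that follow. Density was lower in intron 1 in 5 of 6 libraries, with a mean difference of -0.0344 per bp, which did not pass (exact permutation p = 0.0625, Benjamini-Hochberg adjusted p = 0.0938 over 6 tests). Length differed by less than the spread between libraries, with a mean difference of 367 bp (exact permutation p = 0.719) and of -210 bp without DMSO 1, and peaks by 0.667 (exact permutation p = 0.25).

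Both classes had a shorter median in each TM library than in each DMSO library. The median length of intron 1 members was 44.1 ± 4.30 kb in TM, against 62.9 ± 7.60 kb in DMSO, and that of later introns 45.2 ± 4.33 kb in TM, against 61.0 ± 6.85 kb in DMSO (exact permutation p = 0.1 for each, no overlap). The intron 1 share over the TSS was 78.4 ± 2.85% in TM and 89.1 ± 3.49% in DMSO, and for later introns it was 59.8 ± 4.07% in TM, against 71.0 ± 4.03% in DMSO (exact permutation p = 0.1 for each). Density in intron 1 was 0.824 ± 0.123 per bp in TM and 0.602 ± 0.0637 in DMSO with no overlap (exact permutation p = 0.1), while in later introns it was 0.841 ± 0.149 in TM and 0.655 ± 0.0843 in DMSO with overlap (exact permutation p = 0.2).

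**Figure D2:**
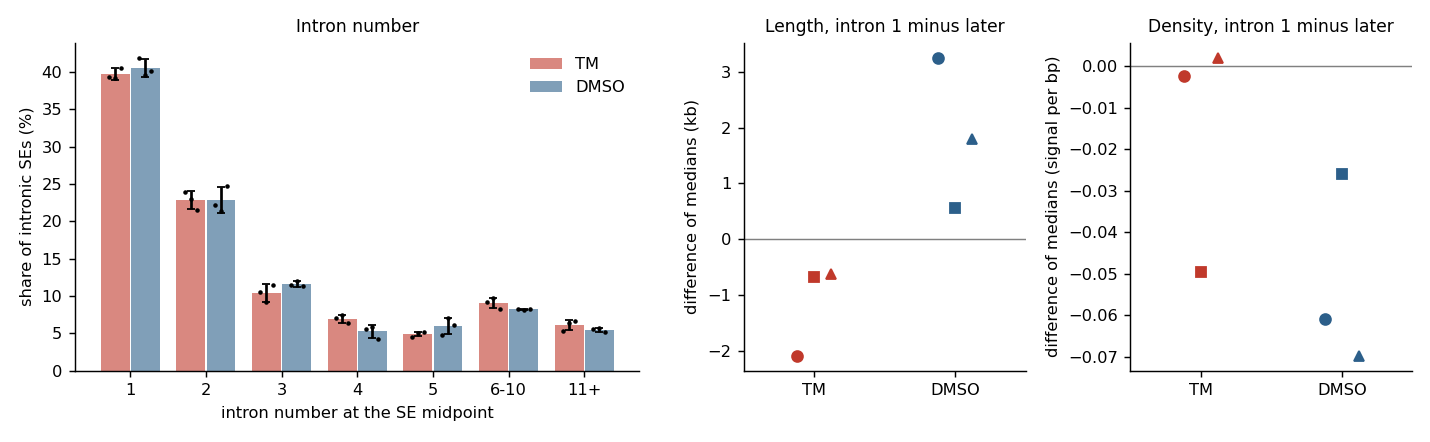
Percent of members by the number of the intron that holds the midpoint (bars, mean of 3 TM and 3 DMSO libraries; whiskers, SD; dots, libraries), and the median of intron 1 members minus that of later introns in each library, for length (kb) and density (signal per bp). Intron 1 holds 39.7% in TM and 40.5% in DMSO, and the length difference is below 0 in the 3 TM libraries and above 0 in the 3 DMSO libraries.

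Intronic SEs were next set against the other SEs of the same library, so that each library served as its own control. Members were longer than the rest of their list, with a mean of library medians of 53.2 kb against 48.3 kb, and they joined more peaks (11.7 against 10.5) at a lower density (0.733 against 0.822 per bp). Each difference had the same sign in 6 of 6 libraries (exact sign-flip permutation p = 0.03125; Benjamini-Hochberg adjusted p = 0.0505 over 21 comparisons, above the threshold of 0.05). The density gap was -0.135 per bp in TM and -0.0423 in DMSO without overlap between the groups (exact permutation p = 0.1). Against 1000 SEs whose midpoint was promoter-proximal, members were longer by 8.62 kb and less dense by 0.130 per bp, in 6 of 6 libraries each. This is a description, since the classes were split at a midpoint distance of 5000 bp. An SE over the TSS is a member only where it is long enough to have its midpoint beyond that limit. A shorter region also tends to have a higher density. The rest of the list includes the promoter-proximal SEs, so the comparison with it has the same limit. Midpoints of members were in a repeat in 44.7%, against 30.9% for the promoter-proximal SEs and 56.2% for 1333 intergenic SEs, with the same order in 6 of 6 libraries. No test is given for this, since the class and the repeat were both read from the annotation of the same midpoint. Against intergenic SEs the differences in length (2.44 kb, higher in 5 of 6 libraries, exact permutation p = 0.0938) and density (-0.0574 per bp, lower in 5 of 6, p = 0.0625) did not pass. More members than intergenic SEs spanned the linked TSS, 72.8% against 63.3%, in 6 of 6 libraries, a description because the rule limits the distance of members only.

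SEs of different libraries that shared at least 1 bp were merged, which gave 1784 regions over the whole series. In 431 of them every listed SE was a member, and these are called intronic regions. All 6 libraries listed 126 of these (29.2%). In 250 the listing was mixed, and 103 came from 1 library. A TM-only region was listed in 3 of 3 TM and 0 of 3 DMSO libraries. There were 31 TM-only intronic regions (7.19%), beside 7.57% of all merged regions, and 24 DMSO-only ones (5.57%), beside 5.44% of all. Neither share departed far from that of all merged regions. Without TM 1, the count of TM-only intronic regions was 56, and without TM 2 that of DMSO-only ones was 44. By linked gene, 46 of the 803 genes were TM-only, 40 were DMSO-only and 140 had an intronic SE in all 6 libraries.

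A region can also change class without being lost. Of 495 merged regions with exactly 1 SE in each of the 6 libraries, 118 were members in all 6, 277 in none and 100 in some. SLC7A11, the cystine transporter subunit that ATF4 induces, is such a case: the 6 libraries all listed an SE there, but its midpoint was more than 5000 bp from the TSS in the 3 DMSO libraries only (10.3, 15.8 and 15.4 kb). Its count as a DMSO-only intronic gene therefore came from a moved midpoint.

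ATF3, an immediate stress response factor, had the highest mean signal of the TM-only intronic regions, although SPIRE1, STK24 and GBE1 were above it in TM 2. It was listed with 48738, 63115 and 53648 in TM 1 to TM 3 and was in none of the DMSO lists. The SE lay in intron 1, 13.0 kb from the TSS on average, was 59.2, 66.9 and 68.1 kb long in TM 1 to TM 3, held 9, 10 and 8 peaks and spanned the TSS in all 3 (chromosome 1, 212716102 to 212784200 as deposited). ERN1, the gene of the sensor IRE1, had an SE of nearly constant extent, 56.7, 56.6 and 56.7 kb, in intron 1 over its TSS (chromosome 17, 62150810 to 62207529). Its signal was 34189, 52902 and 32519 in TM 1 to TM 3, highest in TM 2.

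Others with high signal were at SPIRE1, an actin nucleator gene (37527, 77714 and 44804 in TM 1 to TM 3), STK24, a kinase gene (40387, 72897 and 43062), and CLPTM1L (47661, 47884 and 50247). CLPTM1L showed how little the extent fixed the sum: its SE was 29.7, 5.13 and 23.0 kb long with 4, 1 and 3 peaks, at densities of 1.60, 9.34 and 2.19 per bp. The remaining 4 of the 8 highest were GBE1, the glycogen branching enzyme, RFX2, a transcription factor of ciliogenesis, PDE1C, a phosphodiesterase, and ACSM6, whose SE lay in ACSM6 or in its neighbour PDLIM1 depending on the library. RFX2 had 38862, 46477 and 40783 over 62.6, 65.4 and 62.4 kb.

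CREB5, the bZIP gene that the study followed, was a small member. Its SE lay in intron 1, 53.4 kb from the linked TSS, which it did not reach in any library (chromosome 7, 28384000 to 28400951). It was 16.0, 15.9 and 17.0 kb long with 2, 3 and 3 peaks, and its signal was 21855, 39216 and 25269 in TM 1 to TM 3. CREB1, the founding member of the CREB family, was also TM-only, in introns 1 and 2 over its TSS, with 18318, 39635 and 24286.

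Absence from a list shows a lower signal only where the listed SEs exceeded every threshold of the other group. The lowest TM signal was therefore divided by the highest threshold among the DMSO lists, both as deposited and after scaling the libraries to equal density or equal total signal over shared regions. It was above 1 on all 3 scales for 9 of the 31 TM-only regions (14 on the deposited scale, 9 by density and 26 by total signal), and for the DMSO-only regions the reverse ratio was above 1 on all 3 scales for 10 of 24 (10, 24 and 17). ATF3 had ratios of 1.97, 1.74 and 2.03 and ERN1 of 1.31, 1.08 and 1.62, so both were above every DMSO threshold on each scale. CREB5 had 0.882, 0.842 and 1.24 and CREB1 had 0.739, 0.714 and 1.04, so on 2 of the 3 scales an equal signal in DMSO could have gone unlisted. GBE1 had 1.01, 0.974 and 1.42.

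Among DMSO-only intronic regions the highest signals were at IMMP2L, a mitochondrial peptidase gene, and ERCC6L2, a DNA repair helicase gene. IMMP2L had 54702, 39035 and 68249 in DMSO 1 to DMSO 3, in intron 3, over 68.8, 68.9 and 88.3 kb. ERCC6L2 had 50200, 50230 and 60866, in introns of its antisense gene ERCC6L2-AS1, and spanned the TSS in all 3 libraries (chromosome 9, 98539551 to 98643040). Its ratios to the highest TM threshold were 1.91, 2.75 and 1.94, the highest on the deposited scale among the 8 regions named. ZNRF3, a ubiquitin ligase that removes Wnt receptors, differed most among its libraries. It had 57894 and 57408 over 122 and 119 kb in DMSO 1 and DMSO 3, but 17272 over 28.7 kb in DMSO 2, and its ratios were 0.658, 1.16 and 0.923. The others were PRICKLE1, a planar cell polarity gene, whose SE lay in PPHLN1, SCCPDH, PPP2R2B, a regulatory subunit of protein phosphatase PP2A, REEP3, an endoplasmic reticulum shaping protein, and SPECC1L, a cytoskeletal linker (37292, 32299 and 40403 in DMSO 1 to DMSO 3). DDR2, a collagen receptor gene, had 30816, 23340 and 27703 in DMSO 1 to DMSO 3, with ratios of 0.889, 1.57 and 1.06.

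**Figure D3:**
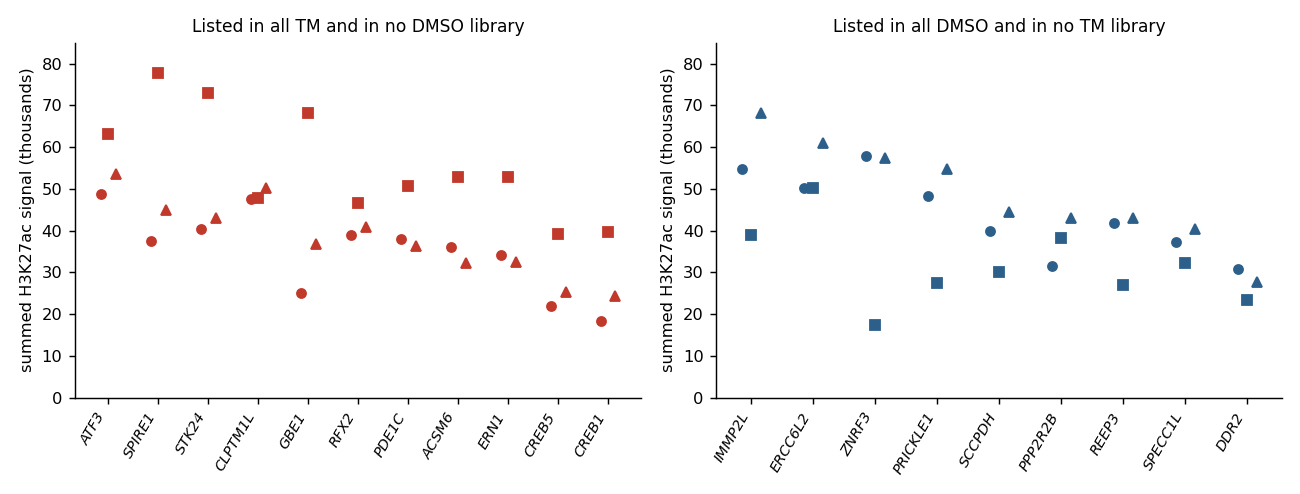
Summed H3K27ac signal (deposited scale, linear axis from 0) of intronic regions listed in the 3 TM and no DMSO library, and of those listed in the 3 DMSO and no TM library, 1 point per listing library. ATF3 lies between 48738 and 63115 in TM, and CREB5 and CREB1 reach down to 21855 and 18318, near or below the thresholds of the other group.

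The 126 intronic regions listed in all 6 libraries allowed TM and DMSO to be compared region by region. Changes are log2 of TM over DMSO from limma, adjusted by Benjamini-Hochberg over all 670 regions that the 6 libraries shared, with density and total signal centred on each library's median over those regions and length and peaks as they are. On the deposited scale the median density change was 0.34 among the intronic regions and 0.35 among all shared ones, and centring removes that common shift, so density and total signal changes are relative to it. After centring, density passed at an adjusted p under 0.05 as higher in 6 regions (beside 6.72% of all shared regions) and lower in 12 (beside 10.6%), with a median change of -0.04 against -0.03 over all 670. Total signal was higher in 26 (beside 18.7%) and lower in 13 (beside 13.7%), with a median of 0.05 against 0.02. Length was higher in 0 (beside 0.448%) and lower in 12 (beside 11.8%), and peaks were higher in 0 (beside 0.149%) and lower in 46 (beside 40.4%). Median changes were -0.23 for length (-0.25 over all) and -0.64 for peaks (-0.70 over all). The intronic regions were thus close to the shared regions as a whole on each measure. On the deposited scale, density was higher in 29 and lower in 0 and total signal higher in 0 and lower in 5, so the split of density and total calls into higher and lower rests on the centring. Length and peaks moved as much when they too were centred on the library medians, to 2 higher and 5 lower for length and 3 higher and 3 lower for peaks, so most of those calls rest on leaving length and peaks uncentred. Leaving out single libraries moved these counts too. Length was lower in 2 regions without DMSO 1 or DMSO 3, in 3 without TM 3 and in 21 without TM 2, and peaks in 4 without DMSO 3, 11 without TM 3 and 13 without DMSO 1. Density was higher in 2 without DMSO 2, in 3 without DMSO 1 or DMSO 3 and in 10 without TM 1, and lower in 6 without DMSO 1 and in 7 without DMSO 2 or TM 3. Total signal was higher in 13 without TM 3 or DMSO 3 and in 15 without DMSO 1.

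The fitted lengths were shorter in TM for 104 of 126 regions, and 91 were both shorter and, on the deposited scale, denser. Over all 670 shared regions these counts were 549 and 494, a like share. Of the 18 density calls, 7 were also calls of total signal in the same direction and 0 in the opposite one. In the 42 regions whose SEs all lay in intron 1, density was higher in 2 and lower in 7, and in the 66 whose SEs all lay in later introns it was higher in 4 and lower in 5. Over all shared regions, density was higher in 6.72% and lower in 10.6%. Peaks were lower in 16 of the 42 and 24 of the 66, beside 40.4% of all shared regions.

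**Figure D4:**
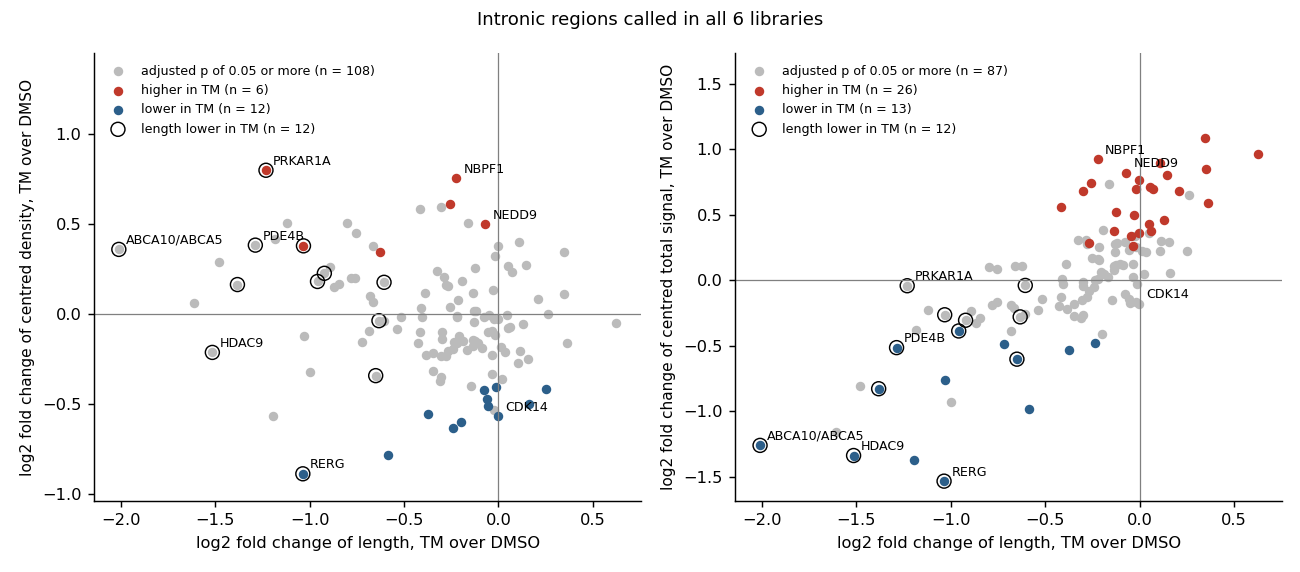
Change of length against change of density and of total signal in 126 intronic regions listed in all 6 libraries (log2 TM over DMSO, density and total signal centred), with limma calls coloured. Most points lie left of 0 (104 of 126 shorter in TM), and RERG is lowest in both panels at -0.89 for density and -1.53 for total signal.

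RERG, a Ras-like growth inhibitor gene, had the largest drop in density. Its density was 0.817, 1.10 and 0.994 per bp in TM 1 to TM 3, against 1.44, 1.15 and 1.53 in DMSO 1 to DMSO 3, and each TM library was below each DMSO library. The change was -0.89 with a standard error of 0.12 (limma, adjusted p = 0.00415). Signal was 31349, 56751 and 39020 in TM, against 133200, 95865 and 133858 in DMSO (-1.53, limma adjusted p = 0.000169), and length 38.4, 51.8 and 39.3 kb in TM, against 92.3, 83.4 and 87.2 kb in DMSO (-1.04, limma adjusted p = 0.0161). Extent, density and sum were thus all lower at RERG. Its length call was lost without TM 3, DMSO 1 or DMSO 3 (limma adjusted p from 0.0601 to 0.0664).

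Of the changes called, the other 5 lowest in density were at WDR25 (-0.78, limma adjusted p = 0.00504), PPTC7, a mitochondrial phosphatase gene (-0.63, adjusted p = 0.00729), SCGB1A1, whose SE lay in the scaffold gene AHNAK (-0.60, adjusted p = 0.00696), CDK14, a cyclin-dependent kinase gene (-0.57, adjusted p = 0.0124), and COMMD1, a regulator of copper handling (-0.55, adjusted p = 0.00729). On the deposited scale the TM and DMSO densities of these 5 regions overlapped. SCGB1A1, for example, had 0.356, 0.483 and 0.378 per bp in TM, against 0.473, 0.464 and 0.467 in DMSO. The calls of all 6 were lost on the deposited scale, where limma gave adjusted p from 0.19 (RERG) to 0.592 (CDK14) with the same sign, and CDK14 was also lost without DMSO 1 (0.0518).

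PRKAR1A had the largest gain in density. Its SE in ARSG had 1.70, 2.74 and 1.93 per bp in TM, against 0.930, 0.823 and 1.00 in DMSO (0.80 with a standard error of 0.13, limma adjusted p = 0.00696). It was also shorter, at 26.3, 22.5 and 23.8 kb in TM against 62.3, 51.3 and 56.8 kb in DMSO (-1.23, limma adjusted p = 0.0038). The groups did not overlap in either measure, and the total did not pass (-0.04, adjusted p = 0.807). NBPF1 (0.76, limma adjusted p = 0.00811) belongs to a family of near-identical copies among which reads may be split. RUSC2 (0.61, adjusted p = 0.011), NEDD9, a focal adhesion scaffold gene (0.50, adjusted p = 0.0415), FBXW11, a substrate adaptor of a ubiquitin ligase (0.38, adjusted p = 0.031), and CDK6, the kinase of the G1 phase (0.34, adjusted p = 0.0309), made up the other gains. PRKAR1A and NBPF1 passed without any single library. The call was lost for RUSC2 without DMSO 2 (limma adjusted p = 0.0541), for FBXW11 without any single DMSO library (0.0941 to 0.115), for CDK6 without TM 3 or any single DMSO library (0.0724 to 0.128) and for NEDD9 without the same libraries (0.0774 to 0.131).

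Length changed most at ABCA10 and ABCA5, adjoining ABC transporter genes that share a region. The region measured 21.1, 45.7 and 23.4 kb in TM, against 113, 109 and 119 kb in DMSO (-2.01 with a standard error of 0.31, limma adjusted p = 0.0202). HDAC9, a histone deacetylase gene, had 23.1, 36.9 and 36.1 kb in TM, against 93.6, 82.7 and 92.8 kb in DMSO (-1.51, limma adjusted p = 0.0161), and its signal was lower too (-1.34, adjusted p = 0.00129). A second HDAC9 region (chromosome 7, 18390894 to 18521928), not all of whose SEs were members, was listed in DMSO only, with 71056, 51441 and 72747. MYO18A, an unconventional myosin gene, had a length change of -1.38 (limma adjusted p = 0.0482). PDE4B, a cAMP phosphodiesterase gene, had 70.5, 87.1 and 86.7 kb with 6, 6 and 4 peaks in TM, against 187, 223 and 186 kb with 27, 37 and 34 peaks in DMSO (length -1.29, limma adjusted p = 0.00644; peaks -2.63, adjusted p = 0.000891). None of these 4 regions overlapped between the groups in length, which adds no support, since they were picked by their length calls. As longer in TM, 0 intronic regions passed. Only PDE4B of the 4 passed without any single library. The call was lost for ABCA10 and ABCA5 without TM 3 or any single DMSO library (limma adjusted p from 0.0525 to 0.0771), for HDAC9 without TM 3, DMSO 1 or DMSO 3 (0.0502 to 0.0664), and for MYO18A without TM 2, TM 3 or any single DMSO library (0.078 to 0.142). With length centred, PDE4B (-0.89), HDAC9 (-1.12) and the ABCA10 and ABCA5 region (-1.61) still passed, and MYO18A did not (-0.98, limma adjusted p = 0.103).

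In 4 regions the SE lay off the promoter in the TM libraries only. Of 118 regions with 1 member in each library, 71 spanned the linked TSS in all 6 libraries and 21 in none. PDE4B, HDAC9, LRRC8D, a subunit of volume-regulated anion channels, and NFIB, a nuclear factor I gene, spanned it in the 3 DMSO and in 0 TM libraries, and 0 regions did the reverse. This count was not made over the 495 regions of any class with 1 SE in each library. The other SEs of the lists also spanned the TSS in a smaller share in TM, as given above. The near edge of the TM SE was 30.4, 14.5 and 14.8 kb from the TSS for PDE4B, 27.6, 26.3 and 26.3 kb for HDAC9, 18.5, 20.6 and 20.4 kb for LRRC8D and 20.6, 22.1 and 23.9 kb for NFIB. In DMSO 1 to DMSO 3 the SE passed over the TSS, and the same measure is negative there. It was -84.4, -102 and -83.3 kb for PDE4B and -12.2, -1.20 and -10.1 kb for HDAC9. For LRRC8D it was -17.0, -1.82 and -19.5 kb, and for NFIB -2.04, -1.98 and -10.8 kb. In DMSO 2 the SE thus only just reached over the TSS at HDAC9, LRRC8D and NFIB. Mean lengths in TM and DMSO were 81.5 and 199 kb for PDE4B, 32.0 and 89.7 kb for HDAC9, 90.8 and 148 kb for LRRC8D and 51.6 and 78.6 kb for NFIB. LRRC8D lost total signal (-0.49, limma adjusted p = 0.0209), and its change of length did not pass (adjusted p = 0.0537). NFIB lost length (-0.61, limma adjusted p = 0.018) and its total did not pass (-0.04, adjusted p = 0.752). The LRRC8D call was lost without any single DMSO library (limma adjusted p from 0.0618 to 0.07) and the NFIB call without TM 3, DMSO 1 or DMSO 3 (0.0593 to 0.0621) and with length centred (0.358). NFIB also had a second region (chromosome 9, 14266749 to 14328375), not all of whose SEs were members. It was listed in 3 TM and 2 DMSO libraries, and all 5 of its SEs spanned the linked TSS. The change at NFIB thus concerns 1 of its regions, and TM libraries still listed an NFIB SE over a TSS.

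**Figure D5:**
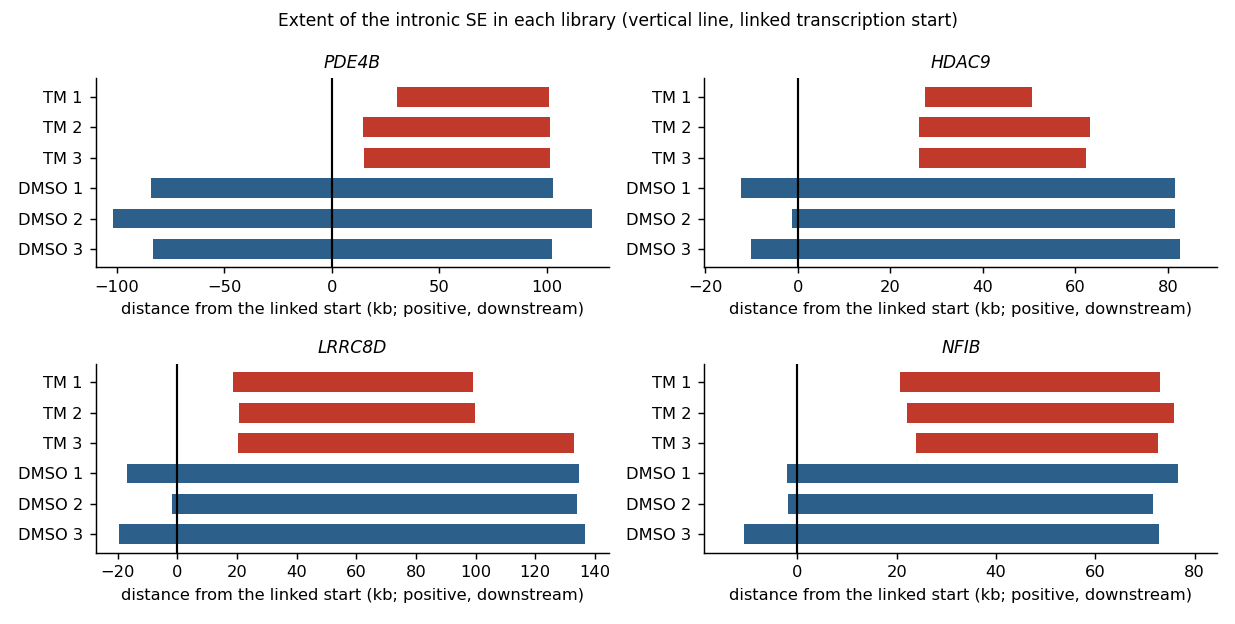
Extent of the listed SE in each of the 3 TM and 3 DMSO libraries at PDE4B, HDAC9, LRRC8D and NFIB, in kb from the linked TSS (at 0). Each bar is centred at the absolute distance of its midpoint, so the side of the TSS is not shown. The word downstream on the axis therefore need not hold. The DMSO bars cross 0 at each gene, and the TM bars stop 14.5 to 30.4 kb short of it. The second NFIB region is not drawn.

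By summed signal, the strongest shared intronic regions included PDE4B, PDE3A, ZBTB38, LRRC8D and LDHAL6B. PDE4B had 120556, 222363 and 148933 in TM, against 243145, 202505 and 239697 in DMSO, and its centred total was lower (-0.51, limma adjusted p = 0.00401). PDE3A, another cAMP phosphodiesterase gene, had 32048, 169888 and 94946 in TM, against 198880, 143791 and 204042 in DMSO (-1.16, adjusted p = 0.0585). In TM 1 the PDE3A region was reduced to 1 peak of 17.1 kb, while TM 2 had 37 peaks and overlapped the DMSO signals. ZBTB38, a methylated DNA binding factor, was higher in total (0.26, limma adjusted p = 0.0288), a call that was lost without TM 3 or any single DMSO library (0.0618 to 0.106). The LDHAL6B region lay in the myosin gene MYO1E and its total did not pass (-0.26, adjusted p = 0.135).

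Some genes held several intronic SEs in a library. PDE4D, a cAMP phosphodiesterase gene with very long introns, had 3, 5 and 4 in the TM libraries, against 4, 5 and 4 in the DMSO libraries, over 259, 534 and 295 kb in TM and 337, 472 and 595 kb in DMSO. DST, which encodes the cytoskeletal linker dystonin, had 2, 3 and 2 in TM and 2, 2 and 3 in DMSO. PDE3A had 1, 3 and 2 in TM and 2 in each DMSO library. The groups overlapped in number for all 3 genes.

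Genes of 10 lists were looked up among the members. Beside the counts that follow, 46 of all 803 genes linked to a member were TM-only, 40 were DMSO-only and 140 were intronic in all 6 libraries. The share of all genes linked to any SE, or to an intronic one, was not counted. The counts therefore do not show whether a list was linked to SEs more often than other genes, and lists are not compared by them. Of 31 unfolded protein response genes, 6 were linked to any listed SE and 2 to an intronic one, ATF3 and ERN1, both TM-only. HSPA5, DDIT3, XBP1 and EIF2AK3, which encode the chaperone BiP, the factor CHOP, the IRE1 target and the sensor PERK, were linked to no SE. Of the 24 genes put on the ATF4 amino acid response list, 5 had an SE and 2 an intronic one, both counted as DMSO-only. These were SLC7A11, whose midpoint moved as described above, and DDR2, the collagen receptor gene that is also on the receptor and kinase list. Of 41 bZIP genes, 10 had an SE and 5 an intronic one. ATF3, CREB1 and CREB5 were TM-only, and ATF1 was listed in all 6 libraries with no call on any measure (density 0.10, adjusted p = 0.718). The study picked CREB5 from genes shared by the changed SEs of these libraries and its RNA-seq, as the one with the highest fold change. Its place in the count is therefore not independent evidence.

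Cytoskeleton regulators had 25 of 45 genes at any SE, 19 at an intronic one and 10 at an intronic one in all 6 libraries. SPIRE1 was their TM-only gene and 0 were DMSO-only. In 9 shared regions, total signal was higher in 3, lower in 2 and not called in 4, beside the 18.7% and 13.7% of all shared regions given above. ACTN4, which encodes alpha-actinin 4, had 74811, 100904 and 77213 in TM, against 50473, 37499 and 48232 in DMSO (0.90, limma adjusted p = 0.00283). MYH9, the non-muscle myosin heavy chain gene, had 65006, 76759 and 58474 in TM, against 43718, 35664 and 44701 in DMSO (0.70, limma adjusted p = 0.0191). Neither overlapped between the groups. TPM4, a tropomyosin gene, was higher as well (0.50, adjusted p = 0.0438), and both DST regions were lower (-0.76, adjusted p = 0.0384, and -0.39, adjusted p = 0.031). These total calls are relative to the centring, and 0 of the 5 passed on the deposited scale. Without single libraries the ACTN4 call held throughout, that of MYH9 was lost without TM 3, DMSO 1 or DMSO 3 (limma adjusted p from 0.0617 to 0.0685), and those of TPM4 and both DST regions without TM 3 or any single DMSO library (0.0722 to 0.135), with TPM4 and the first DST region also lost without TM 1 (0.0672 and 0.0806). MYO10, an unconventional myosin gene, ARHGEF28, a guanine nucleotide exchange factor gene, and ARHGAP18, a GTPase activating protein gene, had total changes of -0.21, 0.09 and -0.19 that did not pass (limma adjusted p = 0.516, 0.679 and 0.222). Density passed in 0 of the 9 and peaks were lower in 7, beside 40.4% of all shared regions with lower peaks.

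Genes of adhesion, matrix and the epithelial-mesenchymal transition had 14 of 46 at any SE and 11 at an intronic one. FSTL1, a secreted glycoprotein gene, was an intronic gene in TM only, in a merged region that all 6 libraries listed, with 24697, 36181 and 25657 in TM 1 to TM 3, against 68442, 52816 and 91331 in DMSO 1 to DMSO 3. NEDD9 was called in both density and total signal (0.82, limma adjusted p = 0.00168), while VCL, the vinculin gene, and the ITGB6 region had no call. Receptor and kinase genes had 13 of 43 at any SE and 9 at an intronic one, 1 TM-only (STK24) and 1 DMSO-only (DDR2). MET, the hepatocyte growth factor receptor gene, had 24272, 49436 and 28770 in TM, against 52379, 43101 and 54294 in DMSO, with overlap, and was lower in centred total (-0.60, limma adjusted p = 0.0079) and in length (-0.65, adjusted p = 0.0224). The length call was lost without any single library but TM 2 (limma adjusted p from 0.0525 to 0.0771) and with length centred (0.303), and the total call on the deposited scale (0.454). Of 57 transcription and chromatin regulators, 28 were linked to any SE and 17 to an intronic one, 6 in all 6 libraries, with 0 TM-only and 0 DMSO-only. In their 4 shared regions (ETS1, HDAC9, CUX1 and NFIB), length was lower in 2, beside 11.8% of all shared regions, and density was called in 0.

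Lipid and sterol genes had 11 of 41 at any SE and 9 at an intronic one, 0 TM-only and 0 DMSO-only. STARD13, MGLL, which encodes monoacylglycerol lipase, and the fatty acid elongase gene ELOVL6 were shared, with 0 calls of density, total or length. Peaks were lower in 2 of these 3 regions, beside 40.4% of all shared regions. Inflammatory signalling genes had 16 of 37 at any SE and 8 at an intronic one. LIFR, a cytokine receptor gene, was DMSO-only, although TM 2 listed an SE in the same merged region that was no member, and JAK1 was shared with no call on any measure (total 0.31, adjusted p = 0.141). Hepatocyte identity genes had 8 of 49 at any SE and 2 at an intronic one, with 0 listed in all 6 libraries as intronic.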

How the data were processed

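The authors made H3K27ac ChIP-seq libraries of TM-treated and DMSO-treated HepG2 cells, 3 per group, and groups were taken from the treatment in the labels. An input library from control cells was not analysed here. The deposited tables list SEs per library, with positions, the linked gene and a signal column. The submitters' processing notes name CASAVA 1.4 and 2 builds, mm9 and hg38, without a role for either. Region names show MACS peaks that were stitched, and the peak number was read from them. The deposited signal was the density per bp, in steps of 0.0001, times the length (tolerance 0.01 of a step, 100% of rows), and whether it is normalized to input or library size is not stated. Each list stops at a threshold of its own library, the stitching distance is not given in the sources used here, and a shorter region tends to have a smaller sum and a higher density. Depth in reads is unknown, so no counting interval was given. Coordinates are printed as deposited. They are not on GRCh38.p14, where the implied TSS fell within 5 kb of an end of the same gene for 10.1% of 2524 members, and the build is not given in the sources used here.

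The members, gene lists and tests were chosen with earlier results of these data known. Gene names were updated with RefSeq by gene ID (801 of 803 matched). 1 value per library was compared by exact permutation tests over libraries, and classes within a library by exact sign-flip permutation tests, all two-sided. SEs sharing 1 bp were merged, signals and lengths of a region were summed per library, and regions listed in all 6 libraries were tested on log2 values with limma (version 3.58.1, trend, R 4.3.3) at an adjusted p under 0.05 (Benjamini-Hochberg). On simulated data with the 670 shared regions, this test recovered 89%, 40%, 76% and 43% of changes of 1 (log2) in density, total signal, length and peaks, and 25%, 1%, 35% and 3% of those changed by 0.5. The simulated spread was that of the uncentred values, drawn separately for each region. It thus held differences between whole libraries, which centring removes from the real density and total signal. For those 2 measures the shares do not give the recovery of the real test. Alternatives were other distance limits, thresholds, merging, centring, a replicate block and leaving out each library. The text names, by rule, the 8 TM-only and 8 DMSO-only intronic regions and the 6 shared ones with the highest mean signal, the 6 highest and 6 lowest called density changes, the 4 largest called length changes each way, the 3 longest and densest SEs per group, genes with 3 or more intronic SEs in a library, ERN1, ATF3, CREB5, and SEs at the distance limits. Of list genes with an intronic SE in 2 or more libraries, which the rule also holds, those with an intronic region in all 6 libraries or in 1 treatment only are named, and most others, in regions of mixed class or listing, enter the counts alone. A region among the 6 shared ones is not reported here. TXNIP, SLC7A11 in its merged region, and the second HDAC9 and NFIB regions were singled out after their values were seen. Python 3.11.15, pandas 2.3.3, numpy 2.4.6, scipy 1.17.1 and matplotlib 3.10.9 were used.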

Additional observations from a re-analysis of the deposited data

Results flagged for a closer look

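The length of intron 1 members relative to later introns differed in sign between the treatments. The median length of intron 1 members minus that of later introns was -2091, -678.5 and -621 bp in TM 1 to TM 3, against 3255.5, 551.5 and 1787.5 bp in DMSO 1 to DMSO 3, so every TM library was below 0 and every DMSO library above it. The difference between the groups was -2995 bp (two-sided exact permutation test over libraries, p = 0.1, the lowest value possible; Benjamini-Hochberg adjusted p = 0.2 over 6 tests). The gap is small beside the median length of a member, 44459 ± 4250 bp in TM and 61872 ± 7320 bp in DMSO.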

How the results depend on the processing

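Between TM and DMSO, the per-library medians of length, peaks and density and the share over the TSS kept their direction under every alternative tried. The number of intronic SEs reversed to -11.3 with equally many top SEs per list, and ranged from -22 to 49 without single libraries. The intron 1 share in TM minus DMSO became 0.542 points with no upper distance limit and 1.27 points with introns of the linked gene only, and the first minus later length -753 bp with the latter, with a range of -210 to 859 bp without single libraries. The first minus later density passed (exact permutation p = 0.03125) at a 10000 bp limit (-0.0334), no upper limit (-0.0332), above the highest threshold (-0.0497) and with introns of the linked gene (-0.0616). Against the rest of the list, the difference in peaks was 1.00 with equally many top SEs. Without single libraries, where 5 libraries cannot pass, it was 1.0 to 1.2, that in length 4425 to 5582 bp and that in density -0.09996 to -0.0711. Above the highest threshold, TM-only and DMSO-only intronic regions numbered 13 and 12. They ranged from 32 to 56 and from 25 to 44 without single libraries. Counting regions with at least 1 member gave 39 DMSO-only regions. It gave 19 higher and 35 lower for density, 55 and 65 for total signal, 1 and 50 for length, and 160 lower for peaks. Without centring, density gave 29 and 0 and total signal 0 and 5. With centring, length gave 2 and 5 and peaks 3 and 3. Without single libraries, the ranges were 2 to 10 higher and 6 to 14 lower for density, 13 to 28 and 9 to 19 for total signal, 0 to 1 and 2 to 21 for length, and 4 to 45 lower for peaks.

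Same-numbered TM and DMSO libraries did not deviate together (correlations of -0.047 to -0.008 for density and -0.21 to 0.007 for total signal). This cannot decide whether the numbers pair the samples, since deviations from a mean of 3 libraries depend on each other. The labels do not state a pairing. With a replicate block, total signal was higher in 12 regions, length lower in 1 and peaks lower in 28, and other calls moved by less than 1.5 times. Of 45 calls named for single regions, 28 held with the block, and 9 of 31 for density or total signal held without centring.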
